A study of Rattus norvegicus with 24 samples.

Results

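Mitochondrial ribosomal protein genes were described in the soleus, a slow postural muscle of the hindlimb, of female rats of about 14 weeks. The set held every gene whose symbol in the authors' annotated table starts with Mrpl or Mrps, with 1 probe per gene, the one with the highest mean signal over the 24 arrays. That gave 74 genes out of 20024 named genes on the array, from 85 probes. Of these genes 73 were well above background on at least 8 of the 24 arrays and were tested, and 69 were above it on all 24. Mrps28 did not reach that limit. The groups held 8 rats each, and each rat gave 1 one-colour Agilent array, made from total RNA of a mid-belly sample. SED rats lived for 8 weeks in ordinary cages, TR rats had a running wheel in the cage for 8 weeks, and DETR rats had the wheel for 4 weeks and then 4 weeks without it. All 3 groups then ran for 1 h at 20 m/min in a forced running wheel and the soleus was collected after another 24 h. Every group therefore carries the run, and no unexercised muscle was compared. The design asks whether earlier training, kept up or stopped, alters expression after the same bout.

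The mitochondrial ribosome translates the few messages encoded by mitochondrial DNA, all of them core subunits of the respiratory chain and ATP synthase. Its ribosomal RNAs come from mitochondrial DNA, whereas all its proteins are encoded in the nucleus, made in the cytosol and imported. Proteins of the small subunit (mostly named Mrps) help to read the message and those of the large subunit (mostly Mrpl) surround the site of peptide bond formation and the exit tunnel. Some descend from bacterial ribosomal proteins and others belong to mitochondria alone. Training that raises mitochondrial content in muscle needs both the nuclear and the mitochondrial part of the respiratory chain, which is why this family is read beside training.

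The names do not follow the subunits exactly. Mrps18a and Mrps30 sit in the large subunit in spite of their names and were counted there. Mrps36 carries the symbol Kgd4 in RefSeq, after its place in the oxoglutarate dehydrogenase complex, and was put in neither subunit. The small subunit was then covered by 25 tested genes of 26 and the large subunit by 47 of 47, and 44 of the tested genes have a bacterial counterpart. Mrps21l is a close relative of Mrps21, so their probes may not be fully specific. RefSeq lists pseudogenes for 23 of the genes, 40 loci in all and 9 for Mrpl30, and a probe could also read transcripts from such copies.

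Promoters of 59 of the 74 genes were found in RefSeq (assembly GRCr8), each 300 bases from 250 before to 50 after the start of the gene. Promoters of nuclear genes for mitochondrial proteins are known for sites of ETS proteins such as GABP, of YY1 and of NRF1, and often lack a TATA box. Both strands were searched for exact core motifs, which can overlap. The ETS core CCGGAAG was present in 18 of the 59 promoters (30.5%), in 8.75% of all 33469 RefSeq promoters and in 14.7% of the 11955 promoters of other tested genes. The YY1 core AAGATGG was present in 15 (25.4%), against 7.01% of all promoters and 7.72% of the other tested genes. The NRF1 core GCATGCG was present in 6 (10.2%), against 3.33% and 5.25%. The SP1 core GGGCGG was present in 29 (49.2%), against 33.1% of all promoters and 55.3% of the other tested genes, and TATAAA in 7 (11.9%), against 14.2% and 9.59%. The median GC content was 55.7% in the family and 51.7% over all promoters. These matches describe letters and do not show that a factor binds. The printed promoters are those of Mrps14 and Mrpl23, the genes with the smallest p among those with a difference above and below 0 in trained minus sedentary muscle, and of Mrps18b, picked after its sequence was seen because it holds the ETS, YY1, NRF1 and SP1 cores. Capitals mark those cores on either strand, and each is printed in the direction of transcription.
Mrps14, chr13:74962347-74962646, + strand: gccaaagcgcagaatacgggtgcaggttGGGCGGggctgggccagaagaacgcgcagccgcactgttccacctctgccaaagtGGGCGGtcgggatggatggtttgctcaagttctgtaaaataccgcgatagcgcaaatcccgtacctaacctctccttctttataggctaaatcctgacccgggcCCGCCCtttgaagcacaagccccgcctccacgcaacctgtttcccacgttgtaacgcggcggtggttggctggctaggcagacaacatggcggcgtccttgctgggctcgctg
Mrpl23, chr1:207116680-207116979, + strand: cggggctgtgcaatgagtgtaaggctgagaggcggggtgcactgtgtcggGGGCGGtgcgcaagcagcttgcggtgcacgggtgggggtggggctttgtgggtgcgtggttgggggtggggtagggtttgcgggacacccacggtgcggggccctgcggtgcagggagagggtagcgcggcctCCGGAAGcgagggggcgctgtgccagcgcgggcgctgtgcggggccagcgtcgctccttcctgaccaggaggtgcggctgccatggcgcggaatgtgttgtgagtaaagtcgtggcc
Mrps18b, chr20:2842756-2843055, + strand: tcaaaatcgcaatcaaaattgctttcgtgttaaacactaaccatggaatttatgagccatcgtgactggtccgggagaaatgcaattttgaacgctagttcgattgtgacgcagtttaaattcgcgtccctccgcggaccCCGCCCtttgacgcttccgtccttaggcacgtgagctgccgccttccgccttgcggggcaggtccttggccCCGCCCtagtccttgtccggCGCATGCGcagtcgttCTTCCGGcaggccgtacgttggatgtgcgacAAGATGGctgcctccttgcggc
The Mrps14 promoter holds 3 SP1 cores and none of the other 3 marked cores. The Mrpl23 promoter has 1 ETS and 1 SP1 core. In the Mrps18b promoter the YY1 core lies closest to the coding side, after the ETS core.

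No gene of the family passed the test in any of the 3 comparisons. All values below are log2 signal relative to the 75th percentile of the array, so 0 is the level of a fairly bright spot, and they compare rats, not genes, because probes differ in brightness. Differences between groups come from limma with the slide as a term and p adjusted over all 20324 features by the Benjamini-Hochberg method, and ± is the standard error. The p-values measure the spread between rats. Over all features limma called 0.00% at an adjusted p of 0.05 in DETR minus SED, 0.00% in TR minus SED and 0.00% in TR minus DETR, so the family's 0 of 73 in each comparison matches the array as a whole.

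Most of the genes were measured closely enough to bound their change. The 95% interval of the difference lay within a change of 1.5-fold either way for 60 of 73 genes in DETR minus SED (82.2%, against 55.9% of all features), for 58 in TR minus SED (79.5%, against 60.6%) and for 52 in TR minus DETR (71.2%, against 40.8%). Mrps23, a small-subunit protein found only in mitochondria, had the smallest residual SD, 0.086, and differed by 0.02 ± 0.07 between TR and SED. Mrpl46 (0.098) and Mrps31 (0.113) were as steady, with TR minus SED of 0.04 ± 0.07 and -0.03 ± 0.08. Mrps33 (1.51), Mrpl12 (0.912) and Mrps34 (0.781) had the largest, and their intervals reached past 1.5-fold in every comparison.

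**Figure D1:**
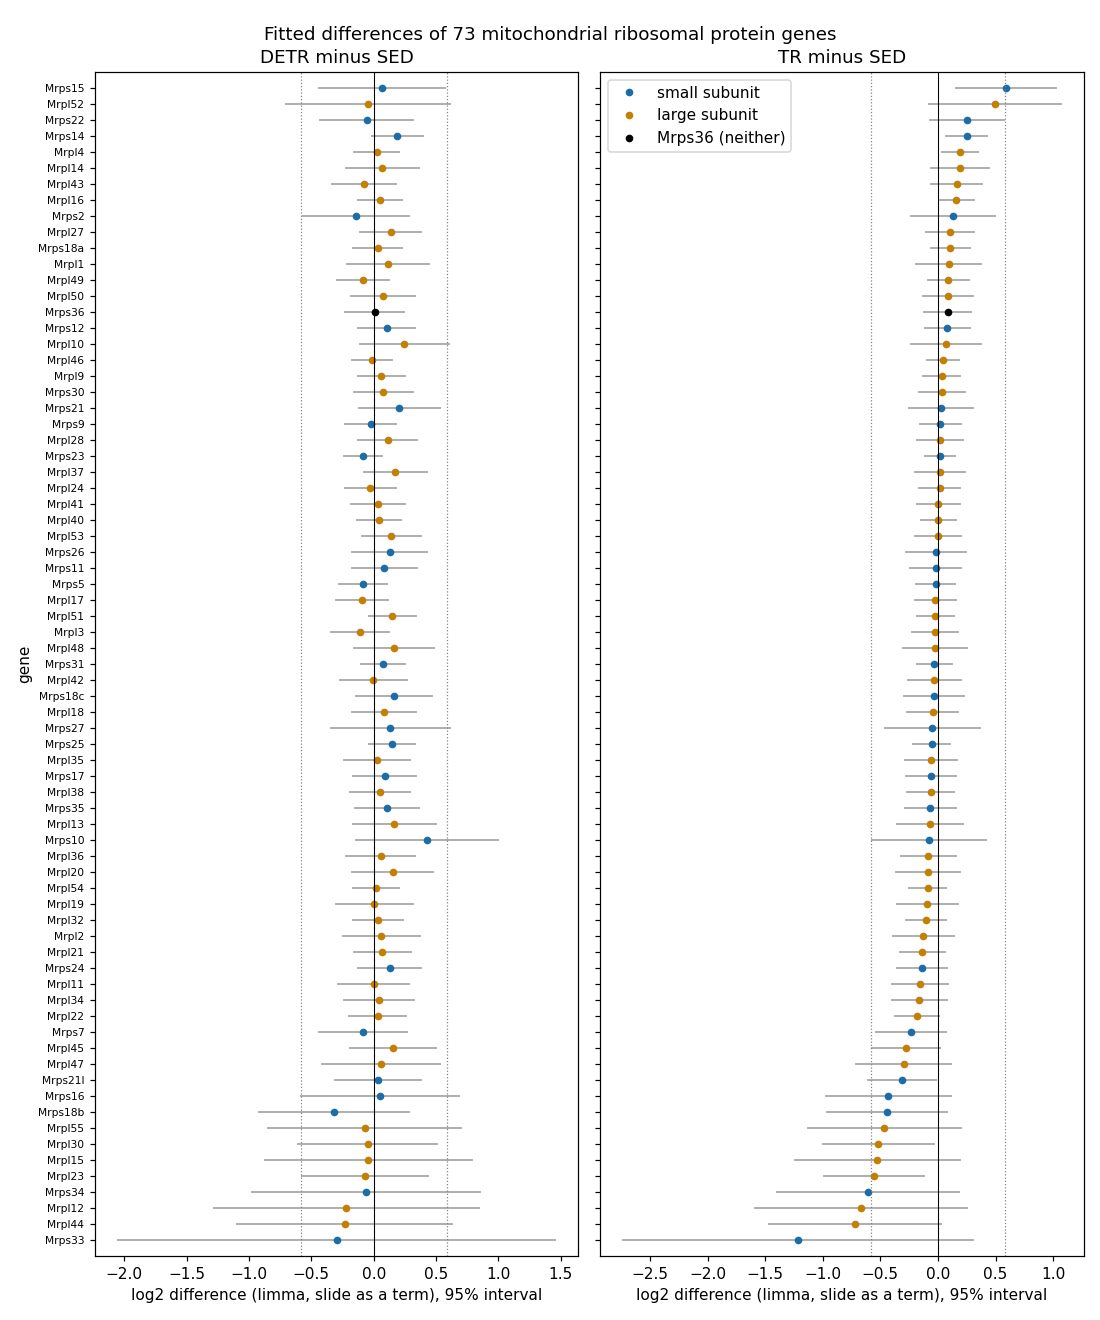
Fitted log2 differences with 95% intervals for the 73 genes in DETR minus SED (left) and TR minus SED (right), ordered by the TR minus SED value; colours mark the subunit and dotted lines a change of 1.5-fold. Most intervals stay between the dotted lines and 6 exclude 0 in TR minus SED before adjustment, while Mrps33, Mrpl44, Mrpl12 and Mrps34 at the foot have the widest.

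The arrays were printed on 3 slides, and the level of the family differed between them. Slides are known from the array identifiers and were not spread evenly: SED rats had 2, 4 and 2 arrays on slides 1, 2 and 3, DETR rats 6, 0 and 2, and TR rats 0, 4 and 4. Expressed as deviation from each gene's mean over the 24 arrays, the median gene of the family was above 0 on all 16 arrays of slides 1 and 2 (0.10 to 0.31) and below 0 on all 8 arrays of slide 3 (-0.64 to -0.11). TR 7 (-0.64) and TR 8 (-0.60) were the lowest. Slide 3 was also the dimmest: its 75th percentile of signal ran from 95.5 to 339, against 817 to 1184 on slide 1 and 562 to 1493 on slide 2, with 95.5 and 124 on TR 7 and TR 8. The part of brightness in the level of these genes was not tested.

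**Figure D2:**
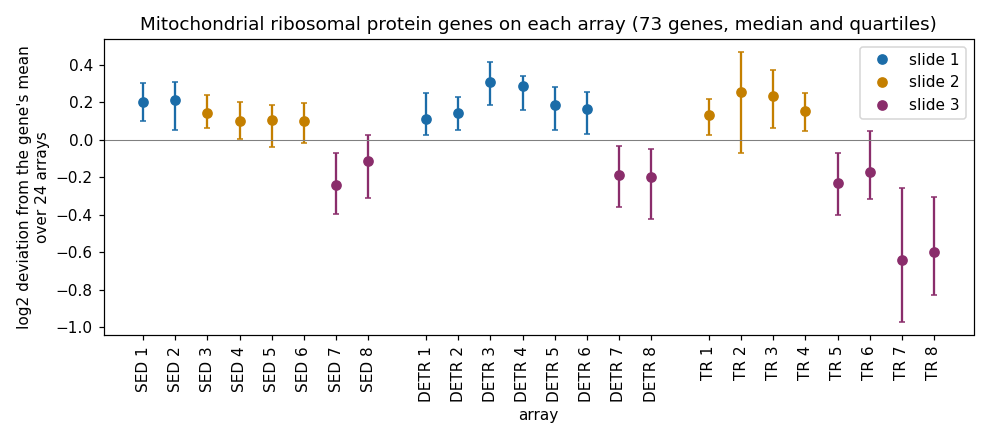
Median (point) and quartiles (bar) over 73 genes of the log2 deviation from each gene's mean, for each of the 24 arrays, coloured by slide. Every array of slide 3 lies below 0, between -0.64 and -0.11, and TR 7 and TR 8 lie lowest.

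Not all genes moved down with slide 3. In SED rats the slide 3 arrays minus the others had a median of -0.31 over the family, from -0.98 for Mrpl16 to 2.48 for Mrps15. Mrps15, a homologue of bacterial S15 that binds the small-subunit RNA early in assembly, thus stood far apart in all groups. Mrpl47 (1.44) and Mrpl38 (1.34) were the next highest.

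Slow-fibre markers were present on all arrays, while the level of fast-fibre markers varied widely between them. All 8 slow-fibre markers (Myh7, Tnni1, Tnnc1, Tnnt1, Myl2, Myl3, Atp2a2 and Casq2) were well above background on all 24 arrays, with a summed log2 level of 10.7 to 12.5 over the 24 arrays. Summed markers of tendon ran from 3.62 to 6.19 in SED, 3.69 to 5.50 in DETR and 3.27 to 5.64 in TR, and those of adipocytes, in the same order, from 1.99 to 3.27, 1.92 to 3.20 and 1.95 to 3.91. Those of 7 fast-fibre genes ranged most, from 1.24 to 9.43 in SED, 6.75 to 8.70 in DETR and 2.04 to 8.86 in TR. Summed macrophage markers ran from 2.89 to 4.29, 2.37 to 4.11 and 2.61 to 4.87, endothelial ones from 3.49 to 3.85, 3.48 to 4.20 and 3.52 to 4.50, and fibroblast ones from 4.50 to 5.79, 4.37 to 5.14 and 3.97 to 5.15. All ranges overlapped between the groups. In the fit with slide as a term limma called 0 of these markers, but several lists lay to one side. In TR minus SED all 7 fast-fibre markers (median -2.19) and all 6 tendon markers (-1.14) were below 0, and all 5 adipocyte markers (0.58), 5 of 6 macrophage markers (0.44) and 4 of 5 endothelial markers (0.12) were above 0, with 0.17 for fibroblasts and 0.11 for slow fibres. In TR minus DETR the adipocyte median was 0.87, the macrophage median 0.48 and the fast-fibre median -1.08, and in DETR minus SED the tendon median was -0.98. The part of these markers in the values of the ribosomal genes was not tested. In whole muscle, fewer cells of a type and less RNA per cell cannot be told apart.

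Detrained and sedentary muscle differed little in this family. Of the 73 genes 0 were called in either direction, 0 had an unadjusted p under 0.05, and 23 (31.5%) had a difference below 0, against 42.0% of all features. Of all features 3.95% had such a p, 3.04% on the higher and 0.910% on the lower side. The median difference was 0.05, beside 0.03 over all features. Within slide 1 (6 DETR and 2 SED arrays) it was 0.02, beside 0.07 over all features. Within slide 3 (2 of each) it was -0.02, beside -0.03. The joint fit also draws on the TR arrays through the slide term. With the SED and DETR arrays alone the family median was 0.008, beside 0.03 over all features, and 47.9% of its genes were below 0. The smallest adjusted p of the family by limma was 1.00. Differences ranged from -0.32 ± 0.29 for Mrps18b to 0.43 ± 0.28 for Mrps10. Of the 73 genes, 39 had the same sign on both slides.

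Mrps14, a homologue of bacterial S14 in the head of the small subunit, had the smallest p. Its lowest, median and highest values were -0.20, 0.06 and 0.24 in SED rats, 0.10, 0.33 and 0.46 in DETR rats, and 0.06, 0.33 and 0.77 in TR rats. All 8 DETR rats thus lay above the SED median, and the lowest of them overlapped with the highest SED rats. The fitted DETR minus SED difference was 0.19 ± 0.10 (limma adjusted p = 1.00), with 0.20 within slide 1 and 0.17 within slide 3.

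The others with the smallest p were Mrpl51, Mrps25, Mrps10, Mrpl10 and Mrpl37, all with a positive difference. Mrpl51, a large-subunit protein, read 0.77, 1.12 and 1.25 in SED and 0.88, 1.20 and 1.38 in DETR, and differed by 0.15 ± 0.10. Mrps25 of the small subunit read 2.76, 2.82 and 2.93 in SED against 2.84, 2.94 and 3.08 in DETR, a difference of 0.14 ± 0.09. In both genes the DETR range lay higher and overlapped the SED range, over most of its length for Mrpl51 and over less of it for Mrps25. Mrpl10, which anchors the stalk that recruits translation factors, read 6.11 to 6.48 in SED and 6.22 to 6.72 in DETR, with 0.24 ± 0.18. A second probe of Mrpl10 gave -0.01 ± 0.13. Mrpl37 gave 0.17 ± 0.13, with 0.04 within slide 1 and 0.22 within slide 3. Mrps10 had a probe of low signal, and its 0.43 ± 0.28 was 0.28 without DETR 5, which read -1.57 while the other DETR rats were between -3.55 and -2.94.

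Trained and sedentary muscle gave 0 calls as well, with genes on both sides of 0. An unadjusted p under 0.05 was reached by 6 of 73 genes, 3 higher and 3 lower in TR, against 10.4% of all features, of which 6.32% were higher and 4.11% lower. A difference below 0 was found for 45 genes (61.6%), against 47.2% of all features. With the authors' normalized table the family's share was 74.0%. There the median of all features was also below 0, at -0.04, beside -0.07 for the family. In the main fit the median difference was -0.03, beside 0.01 over all features. Its range ran from -1.21 ± 0.74 for Mrps33 to 0.59 ± 0.21 for Mrps15.

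The family's median differed in sign between the slides, and so did that of all features. Within slide 2, with 4 TR and 4 SED arrays, the median difference was 0.10 and 20 of 73 genes were lower in TR, beside a median of 0.03 and 8895 of 20324 over all features. Within slide 3, with 4 TR and 2 SED arrays, it was -0.19 and 64 of 73 genes were lower, beside -0.03 and 10937 of 20324. Both slides gave the same sign for 29 of 73 genes, 20 lower and 9 higher. Without TR 7 and TR 8, the dimmest arrays, the median of the joint fit was 0.07, beside 0.0035 over all features, and 24 genes were lower. Without TR 7 alone it was 0.02, with 30 lower. Leaving out TR 2 alone, an array of slide 2 described below, moved the count the other way, to 55 lower genes.

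**Figure D3:**
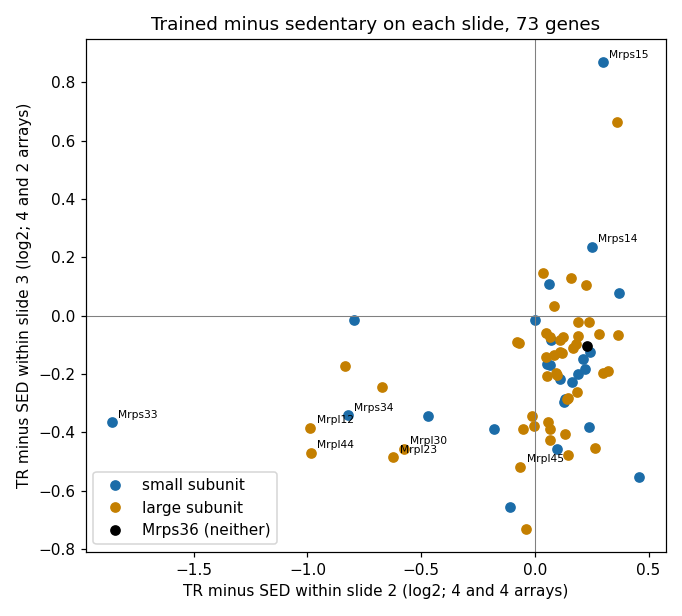
TR minus SED within slide 2 (horizontal; 4 and 4 arrays) against within slide 3 (vertical; 4 and 2 arrays) for 73 genes, on the log2 scale, coloured by subunit. Most points lie right of 0 and below 0, 20 of 73 being lower in TR on slide 2 and 64 of 73 on slide 3; Mrps33 lies farthest left and Mrps15 highest.

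Mrps14 had a like value on both slides. Its fitted difference was 0.25 ± 0.09 (limma adjusted p = 0.375), or 1.19-fold, and it was 0.25 within slide 2 and 0.24 within slide 3. Without any 1 array it stayed between 0.20 and 0.28. The SED and TR ranges overlapped between 0.06 and 0.24.

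Mrps15 read 0.03, 0.32 and 3.01 in SED, 0.12, 0.48 and 3.01 in DETR and 0.20, 2.23 and 3.93 in TR. In each group the high values came from slide 3, where TR rats read 2.75 to 3.93, while on the other slides all rats but TR 2 (1.70) were at 0.71 or below. Its difference was 0.59 ± 0.21 (limma adjusted p = 0.388), with 0.30 within slide 2 and 0.87 within slide 3. Mrpl4, whose protein lines the exit tunnel, read 1.32, 1.78 and 1.85 in SED and 1.26, 1.75 and 2.33 in TR. The 4 TR rats of slide 2 (1.89 to 2.33) lay above every SED rat. The 4 of slide 3 (1.26 to 1.61) lay within or below the range of all SED rats, and the SED rats of that slide read 1.40 and 1.32. The difference with slide as a term was 0.19 ± 0.08 (limma adjusted p = 0.431), with 0.23 within slide 2 and 0.11 within slide 3.

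Lower values in TR were found for Mrpl23, Mrpl30 and Mrps21l. Mrpl23, at the mouth of the exit tunnel, read 1.97, 2.12 and 2.45 in SED and -0.10, 1.91 and 2.36 in TR, a difference of -0.55 ± 0.21 (limma adjusted p = 0.410). The TR rats other than TR 2 lay between 1.66 and 2.36, and 5 of these 7 were below the lowest SED rat. On slide 3 all 4 TR rats were below both SED rats (2.44 and 2.45). Without TR 2 the difference was -0.29. Mrpl30 read 1.16, 1.65 and 1.68 in SED and -0.56, 1.15 and 1.69 in TR. Its difference was -0.52 ± 0.24 (limma adjusted p = 0.462), and -0.24 without TR 2. The lowest TR values of Mrps21l came from TR 7 and TR 2, and its difference of -0.31 ± 0.15 (limma adjusted p = 0.468) was -0.66 within slide 3 and -0.11 within slide 2.

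TR 2 stood apart from the other arrays in the spread of its spots. Its replicate spots of one probe varied with a median CV of 31.5%, while the other 23 arrays had 4.08% to 9.24%. TR 2 was the lowest TR array for 14 of the 73 genes and the highest for 31. Mrpl12, the stalk protein that contacts translation factors, had 1 spot at 41112 and 1 at 17.8 on TR 2, in units of processed intensity. Mrps34 had 6114 and 29.3 there, and Mrpl44, which carries an RNase III-like fold, 3225 and 11.6. Mrps33 had both spots low, 26.5 and 21.1, and no spot of these genes was marked as an outlier by the scanner software.

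Those genes also had the most negative TR minus SED values of the family. Mrpl12 read 4.79, 4.97 and 5.17 in SED, 4.51, 5.07 and 5.39 in DETR and 0.61, 4.66 and 5.16 in TR. Apart from TR 2 the TR rats lay between 4.22 and 5.16. The difference of -0.67 ± 0.45 was -0.08 without TR 2. Without TR 2 the differences of Mrps33 (-1.21 ± 0.74), Mrps34 (-0.61 ± 0.38), Mrpl44 (-0.72 ± 0.36) and Mrps16 (-0.43 ± 0.27) became -0.22, -0.10, -0.25 and -0.12.

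**Figure D4:**
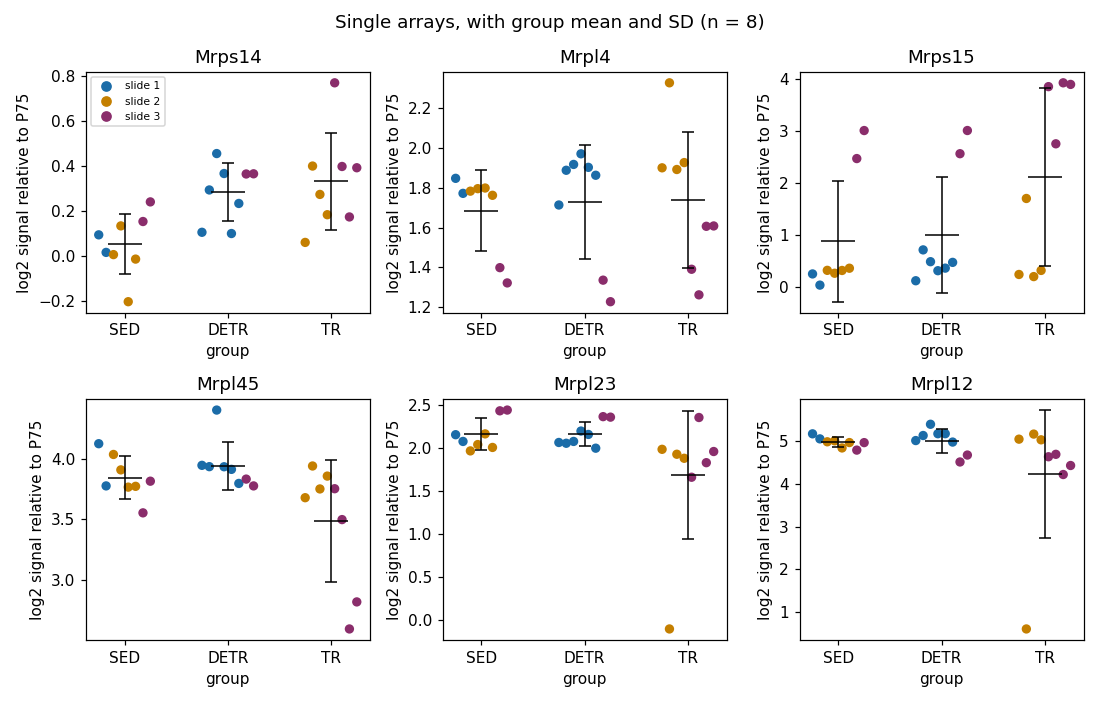
Log2 signal relative to the array's 75th percentile for 6 genes in single rats, coloured by slide, with the group mean and SD (n = 8). Mrps15 is high on slide 3 in every group, Mrpl45 is lowest on 2 TR arrays of slide 3, and the single low TR points of Mrpl23 (-0.10) and Mrpl12 (0.61) belong to TR 2.

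Trained and detrained muscle shared arrays on slide 3 alone, 4 TR and 2 DETR, so their difference rests on that slide and on the SED arrays that link the slides. The family had 0 calls and 1 gene, lower in TR, with an unadjusted p under 0.05, against 9.93% of all features (4.20% higher and 5.73% lower). A difference below 0 was found for 53 genes (72.6%), against 54.5% of all features, with a median of -0.13, beside -0.03 over all features. Within slide 3 the median was -0.20, beside 0.003 over all features. Without TR 7 and TR 8 the median of the joint fit was 0.05, beside -0.04 over all features, and 26 genes were lower.

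Mrpl45, a protein of the exit side that ties the ribosome to the inner membrane, had the smallest p. It read 3.55, 3.80 and 4.12 in SED, 3.78, 3.92 and 4.40 in DETR and 2.60, 3.71 and 3.94 in TR. TR 7 and TR 8 (2.60 and 2.82) were lowest, and the other TR rats lay between 3.50 and 3.94, close to the SED range. TR minus DETR was -0.44 ± 0.19 (limma adjusted p = 0.481), and -0.30 without TR 7.

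Next came Mrps24, a homologue of bacterial S3, with -0.27 ± 0.14. Mrps15 followed, higher in TR by 0.52 ± 0.28, and then Mrps25 with -0.20 ± 0.10. Mrps24 read 2.39, 2.55 and 2.71 in DETR and 1.84, 2.40 and 3.11 in TR. Its TR range enclosed the DETR range on both sides. Mrps21l and Mrpl23 came after these, with -0.35 ± 0.19 and -0.48 ± 0.28. This comparison and TR minus SED share the TR arrays, so these values are not separate evidence.

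The subunits did not stand apart from each other in their medians. The small subunit had medians of 0.07, -0.04 and -0.15 in DETR minus SED, TR minus SED and TR minus DETR, with 9, 17 and 18 of 25 genes below 0. The large subunit had 0.04, -0.03 and -0.11, with 14, 28 and 35 of 47 below 0. Genes with a bacterial counterpart had medians of 0.05, -0.05 and -0.13, and the 28 without a listed one had 0.04, -0.03 and -0.13. Mrps12, a protein of the decoding centre, differed by 0.10 ± 0.11 in DETR and 0.08 ± 0.10 in TR from SED. Mrps22, mutated in some mitochondrial disease, gave -0.06 ± 0.18 and 0.25 ± 0.16. Of the genes assigned apart from their names, Mrps18a gave 0.03 ± 0.10 and 0.10 ± 0.09, Mrps30 0.08 ± 0.12 and 0.03 ± 0.10, and Mrps36 0.01 ± 0.12 and 0.08 ± 0.10. Mrpl41 of the large subunit gave 0.04 ± 0.11 and 0.00 ± 0.09.

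Probe signal is given here beside precision, and a bright probe was not always a precise one. The brightest probes were those of Mrpl10 and Mrpl12. Mrpl10 had a mean value of 6.36 and differed by 0.07 ± 0.15 in TR minus SED, and the residual SD of Mrpl12 was among the largest. Mrpl54 and Mrpl40 of the large subunit came next, with mean values of 4.69 and 4.35. They differed by -0.09 ± 0.08 and 0.00 ± 0.08 in TR minus SED. Probes of Mrps27, Mrpl43 and Mrps2 had mean values of -3.08, -2.94 and -2.16, and gave -0.05 ± 0.20, 0.16 ± 0.11 and 0.13 ± 0.18. The median residual SD was 0.163 for the 10 genes whose probe was printed in 10 spots and 0.216 for the 56 with 2 spots. The median of the 7 with 1 spot lay between these. The ranges overlapped, from 0.086 to 0.538 with 10 spots, 0.098 to 1.51 with 2 spots and 0.117 to 0.474 with 1 spot.

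A second probe was present for 11 genes. The probes differed most for Mrpl30, whose other probe was above background on only 2 arrays and gave 0.54 ± 0.25 in TR minus SED. For Mrps16, which has a bacterial counterpart and is mutated in a mitochondrial disease, the chosen probe gave -0.43 ± 0.27 and the other 0.01 ± 0.14. For Mrpl10 the values were 0.07 ± 0.15 and 0.22 ± 0.11. Its probes differed most in TR minus DETR, where the chosen one gave -0.18 ± 0.20 and the other 0.23 ± 0.14. The sign in TR minus SED differed between the probes of 7 of the 11 genes.

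Other genes of mitochondrial protein synthesis also had 0 calls in every comparison. Of 6 ribosomal proteins without an Mrp name, Gadd45gip1 of the large subunit had 0.17 ± 0.12 in DETR minus SED, and Dap3, a GTP-binding protein of the small subunit, -0.33 ± 0.22 in TR minus SED. The 12 translation factors had medians of 0.00, -0.06 and -0.14 in DETR minus SED, TR minus SED and TR minus DETR. Mtrf1l, a release factor, had the smallest p in TR minus SED, with -0.16 ± 0.10, and Guf1 in DETR minus SED, with 0.20 ± 0.12. The 25 genes of ribosome assembly and RNA handling had medians of 0.04, -0.07 and -0.08. In this list Nsun4, an rRNA methyltransferase, gave 0.23 ± 0.11 in TR minus SED, and its partner Mterf4 -0.23 ± 0.10 in DETR minus SED.

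The 16 mitochondrial aminoacyl-tRNA synthetases, which load transfer RNAs, had medians of 0.04, -0.05 and 0.02. Tars2 gave 0.22 ± 0.08 in TR minus SED (limma adjusted p = 0.361) and Lars2 -0.47 ± 0.21 in DETR minus SED (limma adjusted p = 1.00). The 14 regulators of mitochondrial transcription and biogenesis had 0.07, -0.03 and -0.07, with Pprc1 at -0.18 ± 0.11 in TR minus SED. Respiratory chain subunits, 87 genes, had medians of 0.06, 0.02 and -0.08. The 80 cytosolic ribosomal protein genes had 0.11, -0.10 and -0.21, with 14, 73 and 77 below 0. In this joint fit they lay farther from 0 than the mitochondrial family in each comparison, a difference that was not tested. In TR minus SED the medians of both lists differed in sign between the slides. The cytosolic list had 0.05 within slide 2, with 23 of 80 genes lower, and -0.29 within slide 3, with 78 lower. The respiratory chain list had 0.18 with 12 of 87 lower and -0.19 with 72 lower.

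**Figure D5:**
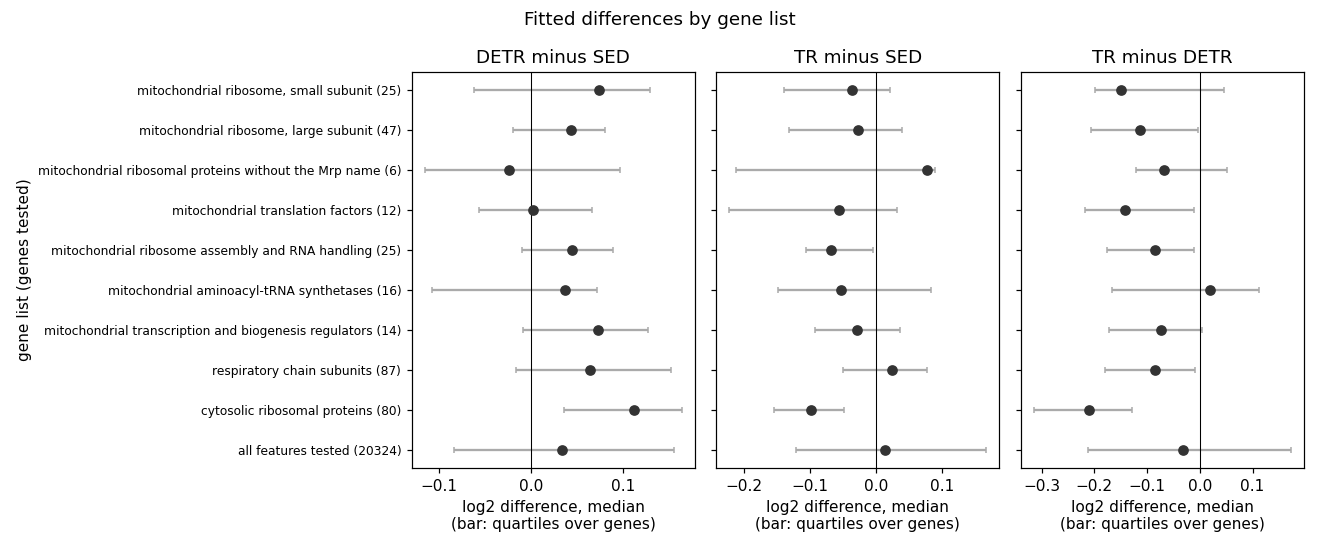
Median fitted log2 difference (point) and quartiles over genes (bar) for each gene list and for all features tested, in the 3 comparisons; the number of genes tested is in brackets. The medians of the small and large mitochondrial subunits are lowest in TR minus DETR, at -0.15 and -0.11, and the cytosolic ribosomal proteins sit farthest below 0 in TR minus DETR, at -0.21.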

How the data were processed

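The authors deposited the scanner files of 24 one-colour arrays, with spot intensity values from Agilent Feature Extraction (11.5.11.1 per the submitters' processing notes, 11.5.1.1 per the file headers), and a table of normalized log2 values per probe. That table has a median of 6.26 in every column, and no source used here names the tool behind it. It served for gene symbols and as an alternative.

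The processed signal was taken as log2 and each array's 75th percentile over non-control spots was subtracted (62976 spots, 4259 of them controls). Spots marked as outliers were left out and spots of a probe averaged; no spot was saturated. Of 30367 probes, 19459 were named by RefSeq accession, 4864 by the file alone and 6044 not at all. Of the 85 probes of the family 82 matched RefSeq. Genes took their probe with the highest mean, and features well above background on at least 8 arrays were kept (20324). The number of arrays limits the precision.

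All 24 arrays entered 1 limma fit (limma 3.58.1, R 4.3.3) on group and slide, the fit was tested on simulated data, and p was adjusted over all features. Slides were read from array identifiers. The background correction by normexp used the median spot signal, where the mean had been planned. No set test or score over the family was run. Genes named are the 6 with the smallest p in each comparison, those with the highest and lowest signal, the largest and smallest residual SD, the most different probes, a fixed set of 11, and of the other lists those with the smallest p; Mrps18b, Mrpl16, Mrpl38 and Mrpl47 were added after their values were seen. The genes, lists and rules were chosen with earlier results of these data known. Alternatives were another normalization, background correction, filter, prior, slide treatment, weights and probes, a replicate block, and leaving out each array, 2 arrays or a slide.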

Additional observations from a re-analysis of the deposited data

Results flagged for a closer look

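Values of single rats that lay far from the rest of their group of 8 were looked for in the named genes and in the median gene of the family. Of 99 combinations of a gene, or of the family median, with a group, 10 had such a value. The limit used lets through about 1 in 20 where all values share 1 normal spread. That rate does not apply here. Some genes were named for their large residual SD or small p in these data, and each group mixes slides. In TR rats 5 of them came from TR 2, the array whose replicate spots disagreed most: Mrpl23 read -0.10 (other TR rats 1.66 to 2.36), Mrpl12 0.61 (4.22 to 5.16), Mrps33 -4.57 (1.42 to 2.88), Mrps34 -0.41 (2.04 to 3.51) and Mrpl44 -1.54 (1.21 to 2.09). Mrpl43 read -3.37 on TR 8 (others -2.98 to -2.70). In DETR rats Mrps10 read -1.57 on DETR 5 (others -3.55 to -2.94) and Mrpl45 read 4.40 on DETR 3 (others 3.78 to 3.95). In SED rats Mrps22 read -1.07 on SED 8 (others -0.45 to -0.09) and Mrps18a read 1.69 on SED 6 (others 1.97 to 2.22).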

How the results depend on the processing

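No gene of the family passed an adjusted p of 0.05 in limma under any alternative run, in any comparison; at an unadjusted p of 0.05 there were 0 genes in DETR minus SED, 6 in TR minus SED and 1 in TR minus DETR. The arrays on slide 3 and the uneven spread of groups over slides limit the values of all 3 comparisons.

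In TR minus SED the number of lower genes, 45, was 20 with array weights, 20 within slide 2, 20 without slide 3 and 24 without TR 7 and TR 8 (an alternative chosen after seeing the data), and the median was -0.19 within slide 3. Without slide 3 the TR arrays left are all on slide 2. That fit therefore gives the same differences as within slide 2 and is not a separate check. In TR minus DETR the median was 0.014 with array weights and 0.047 without TR 7 and TR 8, with 30 and 26 lower genes. In DETR minus SED the 23 lower genes became 35 with only the groups compared, 37 within slide 3 and 35 on slides 1 and 3 alone. No DETR array is on slide 2, so the first and last of these fits give the same differences and are not separate checks. With array weights limma called 106, 81 and 133 features of all in DETR minus SED, TR minus SED and TR minus DETR, and 0 of the family. In TR minus SED normexp called 2 features, the authors' table gave 1 and the fit without slide 3 gave 1, and in TR minus DETR the fit of only the groups compared called 1. Normexp moved the median of all features to 0.15 in TR minus SED and 0.13 in TR minus DETR, with family medians of -0.08 and -0.16. Without the slide term the family median was -0.15 in TR minus SED, with 79.5% of genes lower, and -0.21 in TR minus DETR, with 86.3% lower, and that of the assembly list was -0.21 in TR minus SED and -0.24 in TR minus DETR. The median of the synthetases in TR minus DETR was -0.10 with quantile normalization, -0.11 in the authors' table and -0.075 without the slide term. The causes were not tested.

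Leaving out 1 array at a time, the family median ran from 0.02 to 0.08 in DETR minus SED, -0.06 to 0.02 in TR minus SED (above 0 without TR 7) and -0.17 to -0.05 in TR minus DETR. The number of lower genes ran from 20 to 29, 30 to 55 (30 without TR 7, 55 without TR 2) and 45 to 54. In TR minus SED the sign turned for Mrpl10 (-0.027 to 0.15), Mrps12 (-0.0048 to 0.13), Mrps30 (-0.0082 to 0.093), Mrps36 (-0.0102 to 0.12) and Mrpl41 (-0.031 to 0.053).

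Single genes turned sign, all from values that had passed no test. In TR minus SED within slide 3, Mrpl10 was -0.069, Mrps12 -0.12, Mrps18a -0.021, Mrps30 -0.10, Mrps36 -0.10 and Mrpl41 -0.13. Without the slide term Mrps12 was -0.023, Mrps30 -0.16, Mrps36 -0.055 and Mrpl41 -0.12, and with slide as a random block Mrpl41 was -0.011. With normexp Mrps12 was -0.059, Mrps36 -0.041 and Mrpl41 -0.12. With quantile normalization Mrps30 was -0.0033 and Mrpl41 -0.026, and in the authors' table -0.00028 and -0.034. With array weights Mrps34 was 0.011 and Mrps16 0.030, and Mrps15 in TR minus DETR -0.12. By the other probe Mrps16 was 0.0072, Mrpl41 -0.10 and Mrpl10 in DETR minus SED -0.0092.

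Replicate numbers are shared between groups, but same-numbered arrays did not deviate together (correlations -0.38 to 0.27), and 1 of 24 arrays correlated best with its own number. With the replicate number as a block, limma called 0, 4 and 35 features of all in DETR minus SED, TR minus SED and TR minus DETR and 0 of the family. The family medians under the block were 0.06, -0.14 and -0.23, and in TR minus SED Mrpl10 was -0.14, Mrps30 -0.091, Mrps36 -0.0094 and Mrpl41 -0.11.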
